A study of Schizosaccharomyces pombe with 8 samples.

Results

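The 5118 protein-coding genes on chromosomes I, II and III of fission yeast (Schizosaccharomyces pombe) were compared for 2 ChIP-seq signals, histone H3 and histone H3 acetylated on lysine 14 (H3K14ac). They were all the protein-coding gene rows of the table on these chromosomes, out of 5129 in all. The 11 mitochondrial rows were left out. Every library came from strain YAM2394, taken as wild type, growing exponentially in rich medium. Its mating type is h+, and all libraries share its marker alleles ura4-D18, leu1-32 and ade6-M210. The labels and the methods of the study name this strain. A legend of the study instead names YAM2400, another wild type, of h- type and with no marker allele listed, for this ChIP. The 2 antibodies were the only difference between the groups, and each was used on 2 biological replicates. The study asked whether acetylation differs between classes of genes, and the comparison here asks, gene by gene, where H3K14ac is high or low for the amount of H3 present.

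In ChIP-seq, cross-linked chromatin is sheared, the fragments held by an antibody are sequenced, and the tags over a feature follow the amount of that histone or mark on it. Acetylation of lysine 14 neutralises a positive charge on the H3 tail and is read by bromodomain proteins. In fission yeast, the SAGA enzyme Gcn5 and the MYST-family enzyme Mst2 place it, and deacetylases such as Clr3 and Clr6 take it off. It is known as a mark of the promoters and 5′ regions of transcribed genes, and as a mark that is low in heterochromatin.

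Values were tag densities in tags per nt, and the ratio of a gene was the difference of its mean log2(density + 0.01) between H3K14ac and H3. Tags recovered over gene rows summed to between 14014219 and 15214393 in the H3 and H3K14ac libraries, and the median nuclear gene held 2327 to 2530 tags, so counting error was small for most genes. The authors scaled each library by 1 factor, so a log2 ratio of 0 marks the same density in both and not an absolute amount of acetylation. In such bulk samples, a mark on fewer cells and less of the mark in each cell cannot be told apart. The check on the strain was ura4, a uracil synthesis gene (III:115589-116726) that the ura4-D18 allele deletes. It held 0 tags in each of the H3 and H3K14ac libraries, which allows at most 3 tags each and is what the ura4-D18 allele of YAM2394 gives. The mating type was not tested. It was the single nuclear gene that failed the filter on low values, which left 5117. The other 2 marker genes had signal, with log2 ratios of -0.13 ± 0.02 (SE) for ade6 and 0.91 ± 0.04 for leu1.

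H3K14ac exceeded H3 in 2419 nuclear genes and was below it in 2355, at an adjusted p under 0.05 (limma with Benjamini-Hochberg adjustment over all 5128 gene rows fitted, of which 47.4% and 45.9% were called higher and lower). At least 1.5-fold differences were found in 1263 genes upward and 1046 downward, against 24.8% and 20.4% of all rows fitted. The ratio spread widely. Its 5th, 25th, 50th, 75th and 95th percentiles were -1.09, -0.48, 0.01, 0.58 and 1.45, and its SD across genes was 0.78. The SD between the ratios of replicate 1 and replicate 2 was 0.08, and the median SE was 0.03. Most of this range came with H3K14ac, whose log2 density had an SD of 0.60 across genes, against 0.38 for H3. Both moved: of the 1263 genes called upward, 1089 had H3 below the median of 1.24 tags per nt together with H3K14ac above its median of 1.24. Of the 1046 called downward, 904 had the opposite. In 140 genes called downward, H3 was itself below the median. Counted over coding exons alone rather than over the whole row with its untranslated parts, 1204 genes were called upward and 1635 downward at 1.5-fold.

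The genes nearest to those percentiles show the scale. At the 5th percentile stood mpr1, a phosphotransferase of stress signalling, with H3 at 1.16 and 1.17 tags per nt and H3K14ac at 0.545 and 0.543. In the middle stood pabp, the major poly(A)-binding protein, with H3 at 0.864 and 0.884 and H3K14ac at 0.888 and 0.873, groups that overlapped (log2 ratio 0.01 ± 0.03 SE, adjusted p = 0.732, limma). Of its row of 4616 nt, 2259 nt are 5′ untranslated, and over its coding exons alone the ratio was -0.98. At the 95th percentile stood cox16, a cytochrome c oxidase assembly factor, with H3 at 0.884 and 0.870 and H3K14ac at 2.37 and 2.46. In mpr1 and cox16 the libraries of both antibodies were far apart, and replicates of 1 antibody were close to each other. Actin, act1, often used as a reference gene, lay slightly below 0, with H3 at 0.894 and 0.913, H3K14ac at 0.717 and 0.778 and a log2 ratio of -0.27 ± 0.04 (adjusted p = 0.000132, limma).

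The extremes were read from genes that were over 100 kb from a chromosome end, at least 500 nt long, at least 90% unique in 50-mers and at 0.25 tags per nt or more in both H3 libraries, which 4710 genes were. Among these, the highest was SPAC1F8.08 (I:103941-104953), whose product is uncharacterized, with H3 at 0.307 and 0.301 tags per nt and H3K14ac at 2.08 and 2.06, a log2 ratio of 2.73 ± 0.03 (SE; adjusted p = 1.23e-12, limma). Of the others in the highest 10, SPAC7D4.08, SPAC1399.06, SPBC713.14c and SPAC1565.03 are uncharacterized as well. Known enzymes among the 10 were rib7, a reductase of riboflavin synthesis, and ecm31, the hydroxymethyltransferase that begins pantothenate synthesis. For rib7 (II:3812415-3813549), H3 was 0.486 and 0.528 and H3K14ac 2.64 and 2.54, a log2 ratio of 2.33 ± 0.04. For ecm31 (I:160977-161822), H3 was 0.845 and 0.824 and H3K14ac 3.98 and 4.13, the highest H3K14ac of the 10. The smallest of the 10 was ctf8 (565 nt), a subunit of the replication clamp loader with Ctf18, with H3 at 0.723 and 0.653 and H3K14ac at 3.24 and 3.20. In all 10, H3K14ac lay above H3 in every library.

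The lowest gene by the same criteria was SPBC23G7.10c (II:2118146-2119536), a flavin oxidoreductase gene, with H3 at 1.77 and 1.77 tags per nt and H3K14ac at 0.332 and 0.371, a log2 ratio of -2.30 ± 0.06 (SE; adjusted p = 6.57e-11, limma). Regulators among the lowest 10 included scw1, an RNA-binding protein (H3 at 1.52 and 1.55, H3K14ac at 0.365 and 0.346, log2 ratio -2.08 ± 0.05), csx1, an RNA-binding protein of the oxidative stress response (1.37 and 1.43 against 0.395 and 0.404, log2 ratio -1.78 ± 0.04), pac2, a regulator that holds back sexual development (1.25 and 1.24 against 0.331 and 0.359, log2 ratio -1.82 ± 0.05), and pyp1, the phosphatase of the stress kinase Sty1 (1.44 and 1.41 against 0.415 and 0.413, log2 ratio -1.76 ± 0.04). The meiotic genes spo6, the regulatory subunit of the Spo4 kinase, and mde7, an RNA-binding protein, were there too, at -2.07 ± 0.04 and -1.79 ± 0.04. In all 10, H3 lay above 1.2 tags per nt and H3K14ac below 0.6 in every library. For 5 of the lowest 10 (scw1, SPCC553.12c, pac2, mde7 and csx1), the row has 0 nt of 5′ untranslated part. The same holds for SPAC1F8.08 and SPAC7D4.08 of the highest 10. Of all 430 rows without this part, 36.7% were called at least 1.5-fold higher and 29.5% lower, against 24.8% and 20.4% of all rows. For acs1, which makes acetyl-CoA from acetate (log2 ratio -1.87 ± 0.05), the RefSeq gene begins 706 nt upstream of the row.

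**Figure D1:**
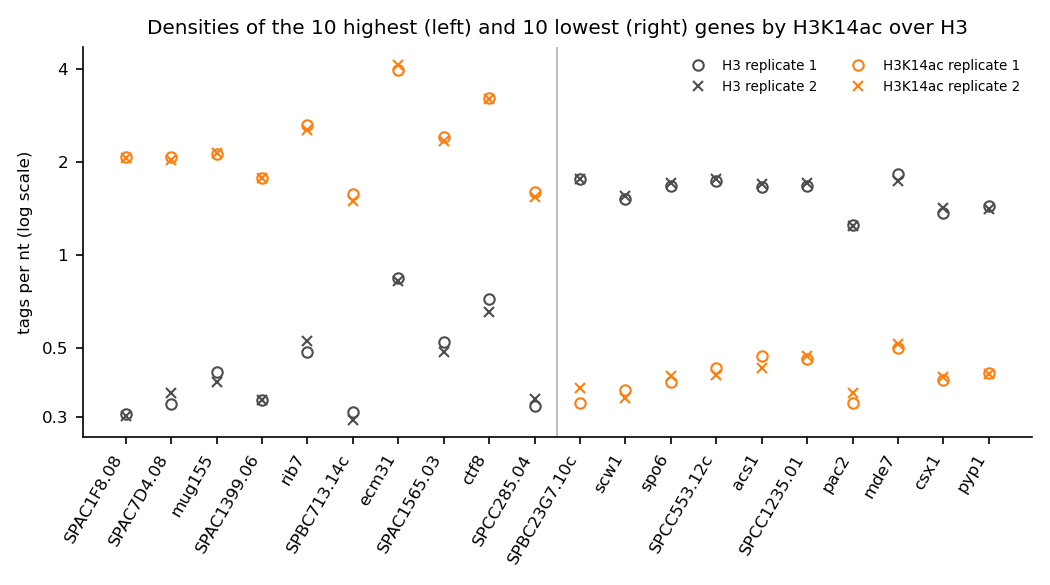
Densities in tags per nt (log scale) of the 10 highest genes (left of the line) and the 10 lowest genes (right), with grey for H3 and orange for H3K14ac, circles for replicate 1 and crosses for replicate 2. In SPAC1F8.08, at the far left, H3K14ac stood at 2.08 and 2.06 over H3 at 0.307 and 0.301, and in SPBC23G7.10c, first on the right, at 0.332 and 0.371 under H3 at 1.77 and 1.77.

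H3K14ac was high over the 5′ part of genes and low further in. The 4109 coding exons of 100 to 600 nt, from 2415 genes, were placed by the distance of their midpoint from the 5′ end of the gene row. Their median log2 ratio was 1.43 within 250 nt (801 exons), 1.02 at 250 to 500 nt (1157), 0.37 at 500 to 750 nt (688), -0.35 at 750 to 1000 nt (454) and -0.80 at 1000 to 1500 nt (490). Beyond that it stayed between -0.95 and -0.73. Each antibody contributed. The median H3K14ac density fell by distance from 3.09 tags per nt within 250 nt to 0.979 at 1000 to 1500 nt, while the median H3 density was 1.22 and 1.62 in the same classes. Replicate 1 gave medians of 1.42 and -0.80 in these classes and replicate 2 gave 1.43 and -0.76. The median GC content was 38.6% in both classes, 37.2% at 2000 to 3000 nt and 36.8% over 3000 nt, and its part in the decline was not tested. These are descriptions of exons, several of which can share a gene, and no test was fitted to exon rows.

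The decline was much the same in short and long genes. Exons within 250 nt had a median of 1.20 in genes under 1000 nt, 1.51 in genes of 1000 to under 1500 nt, 1.47 at 1500 to under 2000 nt, 1.42 at 2000 to under 3000 nt and 1.53 at 3000 to under 5000 nt. Exons at 1000 to 1500 nt had medians of -0.66, -0.77, -0.95 and -0.77 in the 4 last-named length classes. Within 1 gene, the first and the last coding exon could be compared in 1080 genes in which both were at least 100 nt long. The first was higher in 985 of them (91.2%), with medians of 1.25 and -0.68 and a median difference of 1.67 (1.68 in replicate 1 and 1.65 in replicate 2).

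**Figure D2:**
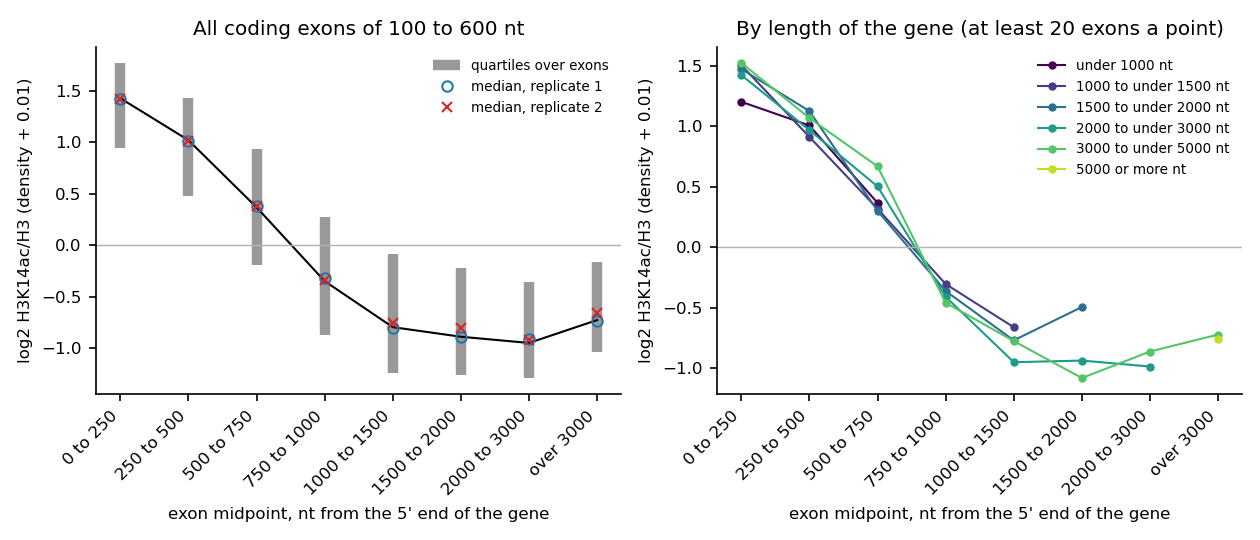
Left, median log2 H3K14ac/H3 of coding exons of 100 to 600 nt (line; circles and crosses give replicates 1 and 2, bars the quartiles over exons) by distance of the exon midpoint from the 5′ end of the gene in nt. Right, the same medians by length of the gene, for points with at least 20 exons. The median declined from 1.43 within 250 nt to -0.80 at 1000 to 1500 nt, and the lines of the length classes ran close to each other.

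Over whole genes, shorter genes had the higher ratio. The median log2 ratio was 1.12 for the 150 genes under 500 nt, 0.93 for 570 genes of 500 to under 1000 nt, 0.42 for 1018 of 1000 to under 1500 nt and 0.05 for 1021 of 1500 to under 2000 nt. It was -0.23 for 1364 genes of 2000 to under 3000 nt, -0.44 for 825 of 3000 to under 5000 nt and -0.78 for 169 of 5000 nt or more. At least 1.5-fold higher H3K14ac was called in 71.1% of genes of 500 to under 1000 nt and in 1 gene of 5000 nt or more, against 24.8% of all rows. At least 1.5-fold lower H3K14ac was called in 63.3% of the longest class, against 20.4%. The genes under 500 nt had the widest quartiles, with 101 called upward and 29 downward and quartiles at 0.01 and 1.65. Spearman's rho between length and ratio was -0.536 across the 5117 genes, which are not independent replicates. Length went with both signals, at a rho of -0.452 with H3K14ac density and of 0.452 with H3 density. GC content of the row also went with the ratio (rho of -0.310), and its part in the relation with length was not tested.

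**Figure D3:**
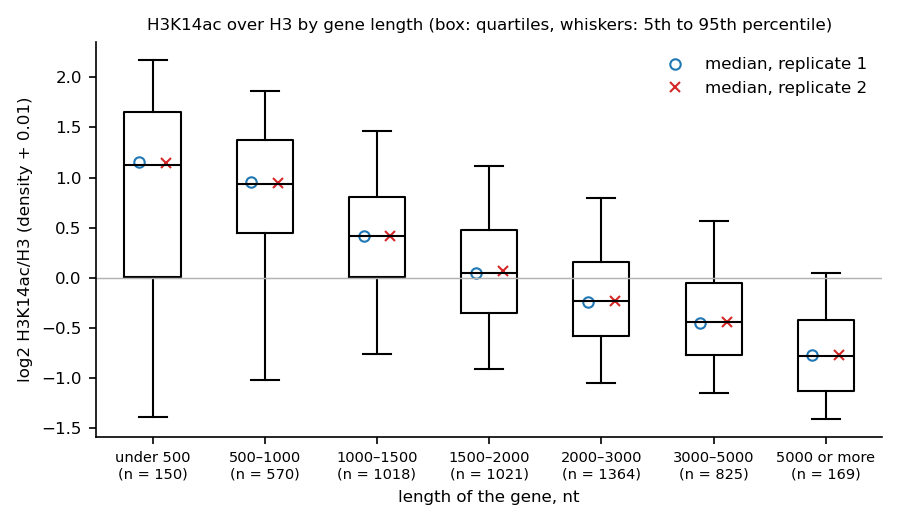
Log2 H3K14ac/H3 of nuclear genes by gene length in nt. Boxes give quartiles, lines medians and whiskers the 5th to 95th percentile over genes, and circles and crosses give the median in replicates 1 and 2. Medians declined from 1.12 in the 150 genes under 500 nt to -0.78 in the 169 genes of 5000 nt or more.

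Each length class held genes far from its median. The longest gene class had 1 gene called upward, mbx2 (6079 nt), a MADS-box transcription factor, with H3 at 0.833 and 0.770 tags per nt and H3K14ac at 1.48 and 1.42 (log2 ratio 0.85 ± 0.04 SE, adjusted p = 8.51e-09, limma). Over its coding exons alone the ratio was negative, -0.46. Among genes of 3000 to under 5000 nt, mug115 (I:1148131-1152178) stood highest, with H3 at 0.213 and 0.198 and H3K14ac at 1.45 and 1.36. Lowest was pdr16, a Sec14-family lipid transfer protein, at -1.64 ± 0.03. The row of pdr16 has 0 nt of 5′ untranslated part, and its RefSeq gene begins 608 nt upstream of the row. The gene SPAC56F8.13, highest of the class of 1500 to under 2000 nt with a log2 ratio of 3.02 ± 0.03, lies inside mug115 on the opposite strand. ChIP does not mark strands, so these share their tags. Of all nuclear genes, SPAPB15E9.02c was highest, a row that overlaps SPAPB15E9.06, with H3 at 0.107 and 0.124 and H3K14ac at 1.29 and 1.27, a log2 ratio of 3.37 ± 0.06. Of its 2270 nt, 1655 nt are 5′ untranslated. In mug115, SPAC56F8.13 and SPAPB15E9.02c, H3 lay below the 0.25 tags per nt required of the extremes above.

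The untranslated part of a row before its coding region also went with the ratio among genes of like length. In genes of 1000 to under 2000 nt, the median log2 ratio was -0.16 where the row has no 5′ untranslated part (130 genes), 0.09 where this part is 1 to 100 nt (590), 0.32 at over 100 to 400 nt (1085) and 0.52 over 400 nt (234). In genes of 3000 nt or more, the corresponding medians were -0.72, -0.62, -0.55 and -0.27. The 39 genes whose RefSeq start lies over 200 nt upstream of the row had a median of -0.70, and 23 of them were called at least 1.5-fold lower. The share of these 39 was 59.0%, against 20.4% of all rows.

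Gene functions were described with 30 lists of genes, by their counts and medians beside those of all nuclear genes (median 0.01). Since the lists differ in gene length, medians are followed by their value after subtraction of the median of each gene's length class, written as subtracted. Over coding exons alone, medians of several lists moved, and the values are given where they moved most. Highest was the list of cytosolic ribosomal proteins, of which 127 of 129 genes were called higher, 114 of them (88.4%) at least 1.5-fold, against 24.8% of all rows. Their median log2 ratio was 1.22, and 0.30 after the subtraction. The median H3 density over them was 0.753 tags per nt and that of H3K14ac 1.63, against 1.24 and 1.24 for all genes. The highest was rpl2801, a protein of the large subunit (656 nt), with H3 at 0.667 and 0.625 and H3K14ac at 2.84 and 2.91 (log2 ratio 2.14 ± 0.04). The 1 gene called lower was rpl1603, a longer row of 2726 nt, at 1.17 and 1.12 for H3 and 0.762 and 0.814 for H3K14ac (log2 ratio -0.53 ± 0.04). Over its coding exons alone, the ratio of rpl1603 was 0.76.

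Ribosomal protein genes of fission yeast share the HomolD box, a short promoter element. The letters CAGTCACA on either strand occurred from 250 bases before to 50 bases after the row start in 72 of these 129 genes (55.8%) and in 2.48% of all 5117 windows. No other motif searched contains these letters. Windows around the match are given for the 3 genes with the highest ratio, 1 in the middle and the 1 with the lowest, among ribosomal protein genes with a match before the row start, to show that the same letters stand at both ends of the range. They are written 5′ to 3′ along the gene with the box in capitals, from RefSeq assembly ASM294v3.
rpl4102, I:2853959-2853988, minus strand, log2 ratio 1.91: agccaaagaaaCAGTCACAttttcgtatat
rps1402, II:1792293-1792311, plus strand, log2 ratio 1.84: cgacacaaattTGTGACTG
rps1102, I:4674520-4674549, plus strand, log2 ratio 1.70: aaagcaatgagCAGTCACAattatccacta
rps2801, I:4305875-4305904, plus strand, log2 ratio 1.05: tgtcgaaaaagCAGTCACAatgttccccat
rps3, II:4239372-4239401, minus strand, log2 ratio 0.16: atacataatatTGTGACTGctattagctat
Ribosomal protein genes with the letters had a median of 1.17 and those without 1.26. The 55 other genes with the letters had a median of 0.14. For the CRE core TGACGT (5.78% of windows), the MCB element ACGCGT (3.03%), the forkhead core GTAAACA (16.6%), CCAAT (40.8%) and TATAAA (50.0%), each on either strand, medians with the letters were -0.11, -0.12, -0.07, 0.01 and 0.02.

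Among other lists of small housekeeping proteins, 36 of 76 mitochondrial ribosomal protein genes (47.4%) were at least 1.5-fold higher and 0 lower, against 24.8% and 20.4% of all rows (median 0.56, subtracted 0.07, over coding exons alone 0.88). The respiratory chain and ATP synthase list had 28 of 55 higher (50.9%) and 3 lower (median 0.59, subtracted -0.01). RNA polymerase subunits had 13 of 31 higher (41.9%) and 5 lower (median 0.42, subtracted 0.14, over coding exons alone 0.28). Here rpa43, for a subunit of RNA polymerase I (1118 nt), stood highest, with H3 at 0.764 and 0.716 and H3K14ac at 2.88 and 2.90 (log2 ratio 1.95 ± 0.03). The gene rpb1 for the large subunit of RNA polymerase II (5625 nt) stood lowest, with H3 at 1.49 and 1.51 and H3K14ac at 0.575 and 0.561 (-1.39 ± 0.03). The 368 genes of uncharacterized proteins had a median of 0.47 (subtracted 0.16), with 170 higher (46.2%) and 68 lower, a share of 18.5% that was close to that of all rows.

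Over whole rows, the lists with the lowest medians were hexose transporters (-0.67; 4 of 8 at least 1.5-fold lower), protein kinases (-0.52; 42 of 94), stress response genes (-0.50; 9 of 20), the Tf2 retrotransposon (-0.49; 1 of 13) and chaperones (-0.44; 7 of 19), against 20.4% of all rows. Subtracted, these medians were -0.34, -0.25, -0.49, -0.05 and -0.23. The order depended on the rows counted. Over coding exons alone, the medians were -0.97 for hexose transporters, -0.92 for adhesins (-0.25 over whole rows), -0.82 for stress response genes, -0.77 for chaperones, -0.75 for kinases and -0.50 for Tf2, which was then behind several other lists. The cell cycle kinase wee1 was the lowest kinase, with H3 at 1.39 and 1.41 and H3K14ac at 0.501 and 0.476 (log2 ratio -1.50 ± 0.04). The heat shock gene hsp9 was short (720 nt) and yet low, with H3 at 0.878 and 0.831 and H3K14ac at 0.280 and 0.275 (-1.59 ± 0.07). It was the lowest member of both the stress response and the chaperone list, which share 2 genes. Copies of Tf2 cannot be told apart by tags of this length, so their values are uncertain. Proteasome subunits, with a median length of 1587 nt, had a median of -0.22, and of -0.47 after the subtraction. In this list rpn2, a subunit of the regulatory particle, was lowest at -1.43 ± 0.03. The list labelled DNA-binding transcription factors was matched by symbol or product name. It also holds tfb5, a subunit of the TFIIH complex, which was its highest member (1.40). Of its 120 genes, 11 were at least 1.5-fold higher (9.17%) and 43 lower (35.8%), against 24.8% and 20.4% of all rows. The median was -0.36, subtracted -0.11 and over coding exons alone -0.68. Of 73 ubiquitin ligases, 4 were higher (5.48%) and 26 lower (35.6%; median -0.24, subtracted -0.16, over coding exons alone -0.45). For other lists, the median was -0.02 for 86 genes of rRNA processing and ribosome assembly (subtracted -0.23), -0.12 for 48 of DNA replication (subtracted 0.04), -0.18 for 56 translation factors (subtracted -0.24) and -0.29 for 36 aminoacyl-tRNA ligases (subtracted -0.13). For 189 transmembrane transporters it was -0.16 (subtracted 0.05), and -0.59 over coding exons alone.

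In the list of glycolysis and fermentation genes, the medians of both signals were low. The median H3 density of these 16 genes was 0.649 tags per nt and that of H3K14ac 0.751, so that the median log2 ratio was 0.06 (subtracted -0.02, over coding exons alone -0.21). The enolase gene eno101 had H3 at 0.242 and 0.266 and H3K14ac at 0.674 and 0.660, and its log2 ratio was 1.36 ± 0.05 although its H3K14ac was below the median of all genes. The 11 genes for core histones and variants had a similar pattern, with medians of 0.809 for H3 and 0.993 for H3K14ac, and a median ratio of 0.29 (subtracted -0.64, over coding exons alone 0.62). The histone genes ranged from -0.60 ± 0.04 (htb1, for H2B) to 1.29 ± 0.03 (hhf1, for H4). Enzymes that write and erase acetylation had medians of 0.07 (17 acetyltransferase subunits, subtracted 0.26) and -0.39 (20 deacetylase subunits, subtracted -0.14), with the long SAGA subunit gene tra1 (11183 nt) lowest of the former at -1.02 ± 0.03.

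Exons near the 5′ end gave another order of lists than whole genes. Exons outside 100 to 600 nt were left out, so these exons do not cover every gene of a list. The 2 orders thus describe different sets of genes. Over all genes, 1958 coding exons of 100 to 600 nt had their midpoint within 500 nt of the 5′ end, with a median log2 ratio of 1.18, and 88.4% of them were above 0. The 26 such exons of 19 meiosis and sporulation genes had a median of 0.03, and 14 were above 0. The 30 whole genes of that list had a median of 0.12, which was -0.00 subtracted and -0.11 over coding exons alone. Genes named mug for higher mRNA in meiosis had a median of 0.25 over 38 such exons of 35 genes, with 20 of the exons above 0. In the stress response list 3 of 7 such exons, from 6 genes, were above 0 (median -0.10). In the mating and nitrogen starvation list it was 2 of 5, from 4 genes (median -0.25). In contrast, all 46 exons of 42 mitochondrial ribosomal protein genes and all 28 of 25 splicing factor genes were above 0 (medians 1.21 and 1.30). So were 37 of 41 for protein kinases (median 0.91), which came from 35 of the 94 kinase genes. The whole rows of all 94 had a low median, -0.52. The median distance from the 5′ end was 253.5 nt in the meiosis and sporulation list and 284 nt over all these exons. These distances run from the row start, so they do not show that the exons match in distance from the start of transcription. Several meiotic rows, among them rec7 and mfr1, begin with the coding exon itself and have no 5′ untranslated part. The part of this in the low medians was not tested.

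The meiotic exons covered a wide range. The exon of spo6 had H3 at 1.68 and 1.82 tags per nt and H3K14ac at 0.417 and 0.432, a log2 ratio of -2.02. The first exon of rec7, a recombination gene, had H3 at 1.42 and 1.37 and H3K14ac at 0.398 and 0.405 (-1.77), whereas the whole row of rec7 stood at 1.11. The first exon of mfr1, an activator of the anaphase-promoting complex in meiosis, had H3 at 1.87 and 1.83 and H3K14ac at 0.682 and 0.736 (-1.38). At the other end, an exon of mes1, which restrains that complex between the meiotic divisions, had H3 at 1.69 and 1.39 and H3K14ac at 4.29 and 4.68 (1.54). An exon of rec8, the meiotic cohesin subunit, stood at 0.92, with H3 at 1.53 and 1.48 and H3K14ac at 2.92 and 2.82. In the exons of spo6, rec7 and mfr1, H3 was above its median of 1.29 over all such exons as well as H3K14ac below its median of 2.80, and the libraries of the 2 antibodies did not overlap.

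**Figure D4:**
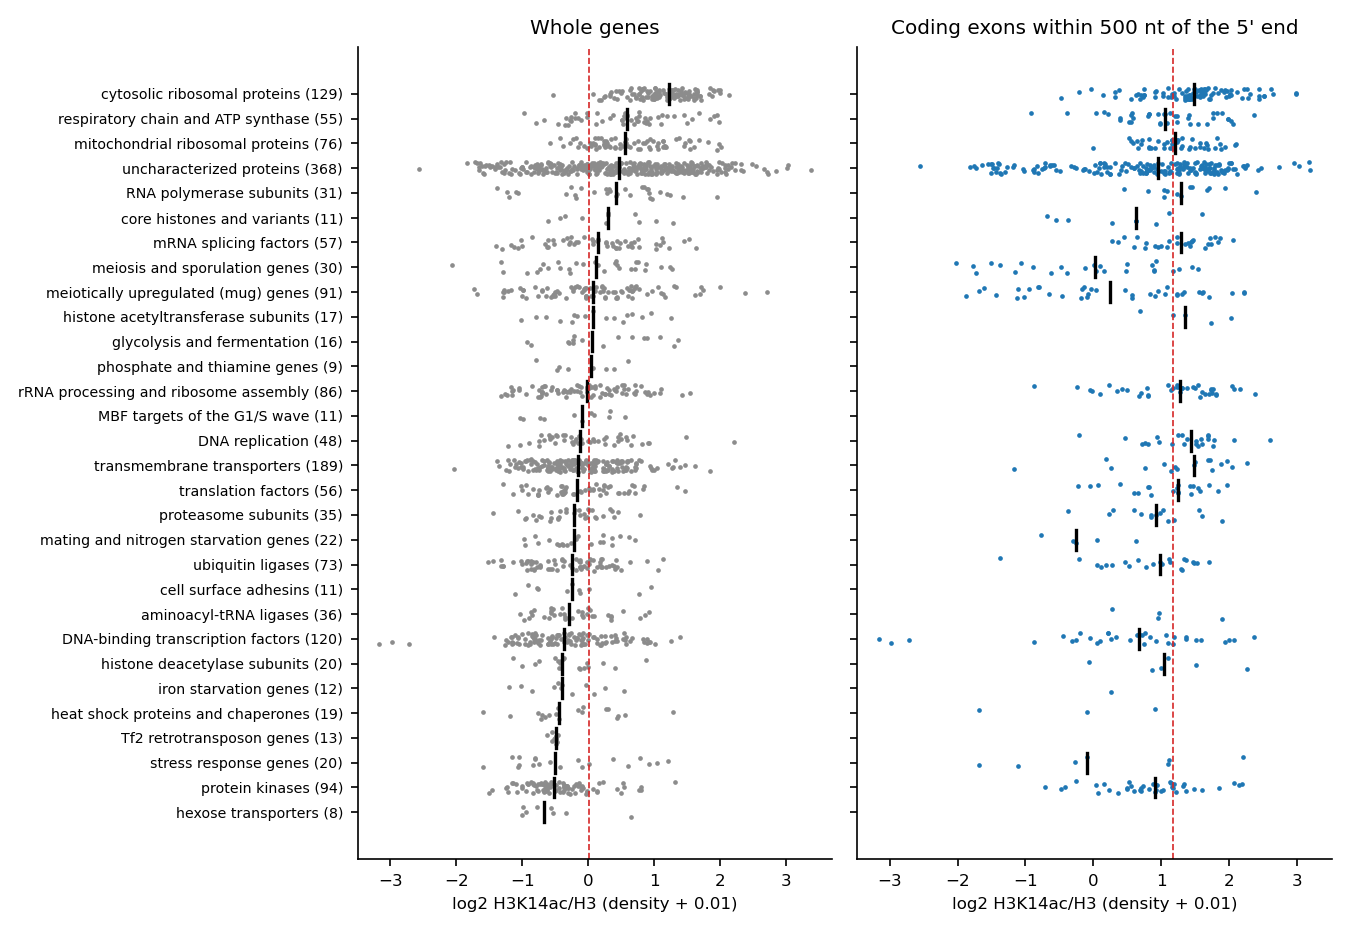
Log2 H3K14ac/H3 of the genes of 30 lists (left, grey points, 1 per gene, number of genes in brackets) and of their coding exons of 100 to 600 nt with midpoint within 500 nt of the 5′ end (right, blue points, 1 per exon). Black bars are medians (right, for at least 5 exons) and red dashed lines the medians over all genes (0.01) and all such exons (1.18). Cytosolic ribosomal proteins lay highest over whole genes (1.22), and the exons of meiosis and sporulation genes lay low on the right (0.03).

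Neighbouring genes were only weakly alike. Across 5114 pairs of adjacent genes, Pearson's r between their ratios was 0.130, falling with separation to 0.0771 for genes 2 apart, 0.0336 for genes 10 apart and -0.0122 for genes 20 apart. Pairs share tags where their rows overlap, and among the 299 divergent pairs that overlap at their 5′ ends r was 0.378. For 846 divergent pairs at least 200 nt apart it was 0.0904, for 852 overlapping convergent pairs 0.198 and for 671 tandem pairs less than 200 nt apart -0.0264. Each of these values describes genes within the same libraries, and genes are no independent replicates. With the median of each length class subtracted, r over all adjacent pairs was 0.229, and over coding exons alone without the subtraction it was 0.0536.

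Over whole rows, the median ratio fell more across classes of the space upstream of a gene than across those downstream. The median log2 ratio was 0.23 where the row overlapped its upstream neighbour (918 genes), 0.12 with a gap under 200 nt (1177), 0.00 at 200 to under 500 nt (1021), -0.07 at 500 to under 1000 nt (934), -0.17 at 1000 to under 2000 nt (744) and -0.41 at 2000 nt or more (322). In the last class, 128 genes were at least 1.5-fold lower (39.8%, against 20.4% of all rows) and 50 higher (15.5%, against 24.8%). By the gap downstream, the medians were 0.02 for overlap (2024 genes) and -0.28 at 2000 nt or more (162). With the median of each length class subtracted, overlap had medians of 0.22 upstream and 0.07 downstream. The gaps of 2000 nt or more were then alike, at -0.23 upstream and -0.26 downstream. The 598 genes that overlapped a divergent neighbour had a median of 0.35, against 0.05 for the 320 that overlapped a tandem neighbour upstream.

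Runs of adjacent genes called in 1 direction at 1.5-fold were mostly short. Of 872 runs upward, 607 were single genes and 12 held 5 or more. The longest upward run held 7 genes from SPBC1105.13c to adi1 (II:3531243-3540887), with log2 ratios from 0.62 to 1.47. The highest was spc1, a signal peptidase subunit, and the run also holds cnp1, for the centromeric H3 variant CENP-A (log2 ratio 1.03). Next were 3 runs of 6 genes on chromosome I, among them those from SPAC11D3.16c to SPAC5H10.03 (I:140381-152909), with dgc1, a D-glutamate cyclase gene, at 1.73, and rmt2 to SPAC8E11.06 (I:3371257-3378094), with SPAC8E11.06 at 1.35. Of 770 runs downward, 597 were single genes and 8 held 5 or more, and the 3 longest, all near chromosome ends, were longer than any upward run.

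Those 3 runs held 15 genes from mel1 to SPAC186.08c (I:5499768-5550012), 14 from tgd1 to tlh2 (II:4483683-4532899) and 11 from tlh1 to ftm2 (I:1-33012). The genes mel1, for melibiase, and SPAC186.08c, for lactate dehydrogenase, had log2 ratios of -1.08 ± 0.04 and -1.67 ± 0.04. The subtelomeric helicase gene tlh1 was the lowest nuclear gene of all at -3.31 ± 0.02, with H3 at 5.44 and 5.48 tags per nt and H3K14ac at 0.546 and 0.536. Only 0.891% of its 50-mers are unique, and its H3 density, like that of its copy tlh2, stands apart from that of other genes. On chromosomes I and II, 18 of 20 genes within 20 kb of an end were at least 1.5-fold lower and 0 higher (median -1.37), against 20.4% of all rows. At 20 to 50 kb it was 34 of 42 (median -0.90), at 50 to 100 kb 25 of 63 (median -0.46, with 15 higher), and at 100 to 200 kb 22 of 157 (median 0.21). Among the 13 genes within 50 kb that are at least 90% unique, 12 were at least 1.5-fold lower (median -0.99). On chromosome III, whose outermost rows lie beside the ribosomal DNA, the medians were -0.56 within 20 kb (2 genes), -0.23 at 20 to 50 kb (20) and 0.11 at 50 to 100 kb (43). These terminal genes are short, with a median of 917 nt within 20 kb, although short genes were high elsewhere. Over 100 kb from the ends, 1236 genes were called upward and 954 downward.

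**Figure D5:**
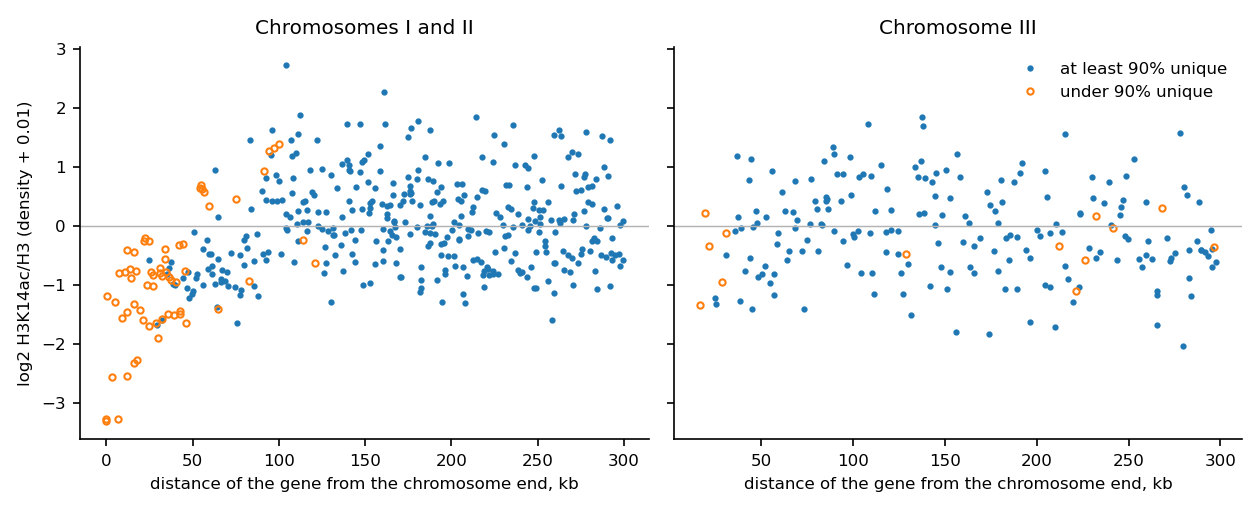
Log2 H3K14ac/H3 of each nuclear gene against its distance in kb from the nearer chromosome end, up to 300 kb, for chromosomes I and II (left) and III (right). Filled points are genes with at least 90% unique 50-mers and open circles the others. On chromosomes I and II all 62 genes within 50 kb lay below 0, with a median of -1.0.

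Over 100 kb from the ends, the longest downward run held 6 genes from rga7 to rpt6 (II:2110485-2122817), around the mating-type locus mat1. Its length rests on the rows of mat1-Mi and mat1-Mc, which have no unique 50-mers. Without them it would be shorter than the next such run, of 5 genes from dip2 to wsc1 (II:1290498-1301328). In the row of mat1-Mc, for the M-specific factor Mc, H3 was 0.705 and 0.729 and H3K14ac 0.0632 and 0.0794 (log2 ratio -3.17 ± 0.26). All of its 50-mers also occur elsewhere, so it cannot be told apart from the silent copy mat3-Mc (log2 ratio -2.98 ± 0.26). Cells of h+ type carry P and not M information at mat1, so in such a strain these tags are not a value of the mat1 locus. In unique sequence beside it, SPBC23G7.10c was at -2.30, mag2, a DNA glycosylase, at -1.53 ± 0.05 and rpt6, a proteasome ATPase, at -0.95 ± 0.05. Within a few genes the pattern turned, with rpp202, a ribosomal stalk protein, at 1.62 ± 0.03 (H3 at 0.739 and 0.760, H3K14ac at 2.29 and 2.36). The chromosomes as wholes differed little, with median log2 ratios of 0.08 for I (2335 genes), -0.00 for II (1867) and -0.11 for III (915).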

How the data were processed

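ChIP-seq libraries for H3 and H3K14ac (2 replicates each) were analysed. The 2 H4ac libraries added only to the estimate of the spread and to the filter on low values. The 2 Input libraries were not used here. The authors fixed cells with formaldehyde, sequenced single ends of 50 nt, mapped reads uniquely with Bowtie2 to ASM294v2 and deposited a signal, the tag density in tags per nt per annotated row. Density times length gave whole multiples of 1 step per library (100% of values within 0.01 of a step), so that each library carries 1 scaling factor. How a tag was assigned to a row is not given in the sources used here. Rows with few or no unique 50-mers still held tags, such as tlh1 (0.891% unique, H3 at 5.44 and 5.48). How reads that fit several places were handled is therefore not known, and densities of repeated rows may also follow their copy number. Exons outside 100 to 600 nt were left out.

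Gene rows that reached 0.05 tags per nt in 2 or more libraries (5128, of which 5117 nuclear) were fitted with limma 3.58.1 (R 4.3.3; lmFit, eBayes with trend) on log2(density + 0.01), which understates changes of low genes. Adjustment was by Benjamini and Hochberg, with calls at an adjusted p under 0.05. Fold changes carry their SE. The fit was tested on simulated data. P-values rest on the spread between the 2 biological replicates per antibody, pooled for each gene over H3, H3K14ac and H4ac. This spread was drawn towards a trend with signal over all genes.

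Names and products came from RefSeq (ASM294v3), in which 5114 of 5118 nuclear genes were found. Its chromosomes I, II and III have the lengths that the table's rows reach, and 99.9% of coding regions begin with ATG at the table's positions. A 50-mer was unique if it occurred once in this genome on either strand. The genes named were the 10 highest and lowest under the stated criteria, the extremes of each list and length class, those nearest 5 percentiles, the ends and extremes of the 3 longest runs per direction, and ura4, ade6, leu1 and act1. The motif sequences, exons of meiotic genes, cnp1 and the genes beside mat1 were chosen after their values were seen. The members and lists were chosen with earlier results of these data known. Alternatives were pseudocounts of 0.001 and 0.1, no filter and a stricter one, 4 libraries only, a replicate block, nuclear genes only, median centring, unique genes only, voom weights on recovered tags, coding exons only and leaving out each library. Limits on exon length, position and untranslated part were added after seeing the data.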

Additional observations from a re-analysis of the deposited data

How the results depend on the processing

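Counts of genes called at an adjusted p under 0.05, with or without the 1.5-fold limit, stayed within 1.5 times under every alternative run, except that coding exons alone gave 1635 genes at least 1.5-fold lower. Leaving out 1 H3 or H3K14ac library at a time (a lone sample being assumed to vary like the other groups) gave 2362 to 2385 genes higher, 2304 to 2323 lower, 1252 to 1266 at least 1.5-fold higher and 1039 to 1053 at least 1.5-fold lower. The correlation of length with the ratio (-0.536) was -0.563 in unique genes, -0.584 over coding exons, -0.563 with a 5′ untranslated part of at least 50 nt, -0.576 over 100 kb from chromosome ends and -0.538 to -0.535 without 1 library. That of neighbouring genes (0.130) was 0.128 with a pseudocount of 0.1, 0.0947 in unique genes, 0.0536 over coding exons, 0.108 for rows at least 200 nt apart, 0.0876 over 100 kb from the ends, 0.229 less the median of the length class and 0.129 to 0.131 without 1 library. The difference of exons within 250 nt from those at 1000 to 1500 nt (2.23) was 2.12 with a pseudocount of 0.1, and 2.17 to 2.26 without 1 library. Over coding exons alone, the log2 ratio changed sign for rpl1603 (0.76), pfl7 (-0.20), thi9 (-0.13), mbx2 (-0.46), pabp (-0.98) and SPCPB16A4.06c (-0.083). The construction of this alternative leaves out untranslated parts. The other 100 of 106 named genes kept their direction and call under the alternatives run for them. The largest move of a median of the 37 lists and length classes was 0.677, for adhesin genes over coding exons, which also turned the sign of 6 medians. They were glycolysis (-0.21), mug genes (-0.05), meiosis and sporulation (-0.11), phosphate and thiamine genes (-0.63), targets of the G1/S factor MBF (0.004) and genes of 1500 to under 2000 nt (-0.08).

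Replicate numbers are shared by the groups in the labels, but 2 pairs cannot show whether they pair the samples. The deviations of same-numbered H3 and H3K14ac libraries had a correlation of 0.0150 over 5117 genes. With the replicate number as a block, 2421 genes were higher, 2352 lower, 1263 at least 1.5-fold higher and 1046 at least 1.5-fold lower. Having 2 replicates per antibody, the absence of Input from the ratio and rows whose 5′ ends differ between annotations limit these values. In simulated data for 5128 genes, 100% of 200 genes changed 1.5-fold and 0.365% of the others were called. The simulation gave each gene the same mean for all antibodies before the change, and a small preset spread. It held far fewer changed genes than were called in the data, so it does not give the error rate in the data.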
